A study of Canis lupus familiaris with 8 samples.

Results

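The microRNAs (miRNAs) cfa-miR-221 and cfa-miR-222 of the dog were taken by name from a table of 452 mature miRNAs, in which each has 1 locus, and both were measured above the lowest value of the table in all 8 libraries. Small RNA was sequenced from conditioned medium of dog mammary cells, extracted with a kit meant to enrich RNA of exosomes, the small vesicles that cells shed. The tumour group, CMT, held 5 lines of canine mammary carcinoma, 1 library each, named CMT-12, CMT-119, CMT-27, CMT-47 and CMT-28. The normal group, CMEC, held 3 samples of normal canine mammary epithelial cells, labelled as biological replicates CMEC1, CMEC2 and CMEC3. Whether these were different dogs is not stated, so their spread may not be that between dogs. The p-values judge a difference only against the spread among these libraries. All 8 cultures were untreated and grown in the same serum-free synthetic medium with antibiotics. The medium of the first 24 hours was thrown away and that of the next 48 hours was harvested on day 3, and 5 mL of it was extracted. Hormone receptor status of the lines was not used here.

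A miRNA guides an Argonaute protein to messenger RNAs that pair with its seed, the bases near its 5′ end, and lowers their output. miR-221 and miR-222 are a pair made from neighbouring hairpins, and their seeds are the same, so they are described as acting on one set of targets. In human cells these include CDKN1B (p27) and CDKN1C (p57), which brake the cell cycle, the receptor KIT, and ESR1, the estrogen receptor alpha. In human breast cancer the pair is described as higher in receptor-negative and basal-like tumours and in cells with mesenchymal features, and it is also abundant in endothelium and vascular smooth muscle. The series compared vesicle miRNAs of malignant and normal mammary cells.

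In canFam3, as the deposited table gives it, miR-221 lies on chromosome X from 39523890 to 39523911 and miR-222 from 39524540 to 39524560, both on the minus strand. The mature forms are 22 and 21 bases long, and 628 bases separate them. The nearest other miRNA of the table, miR-532, is 3250120 bases away on the other strand. In the RefSeq annotation of another dog assembly, UU_Cfam_GSD_1.0, the genes MIR221 and MIR222 both fall within the span of LOC111094885, a long non-coding RNA, whose strand is not part of the annotation used here.

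The values are a normalised signal on a linear scale, with 1 as the lowest value, called the floor here. Above the floor, 99.1% to 100% of a library's values were whole multiples of 1 step within 0.05 steps, so reads could be recovered, from 81138 in CMT-12 and 85906 in CMEC2 to 1405893 in CMT-27. In such bulk libraries, fewer vesicles of a kind and less of a miRNA per vesicle cannot be told apart. The median of the 105 miRNAs above the floor in every library, on the log2(value + 1) scale, was 9.92 in CMT-27 and between 6.33 and 7.62 in the rest. Levels are therefore given as deposited, as a share of the summed value of a library, and relative to that median. Of the epithelial markers (the miR-200 family, miR-203 and miR-205), 1 to 4 of 7 were above the floor in a CMEC sample, where the list held 0.00260% to 0.0198% of the summed value, and miR-200b and miR-429 were at the floor in all 3. miR-141 was at the floor in all 8 libraries. In the CMT lines the list held 2.13% in CMT-12 and 1.68% in CMT-27. It held only 0.00647% in CMT-119, 0.00236% in CMT-28 and 0.000861% in CMT-47, where miR-200b and miR-429 were at the floor too. CMEC1 stood apart from CMEC2 and CMEC3 in its value of miR-221, as follows.

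As deposited, miR-221 varied 25.2-fold among the tumour lines and 21.5-fold among the normal samples. As a share of the summed value it varied 10.0-fold and 13.5-fold, so no level was typical of either group. Its deposited value was 5179.6 in CMT-27, 4568 in CMT-47, 1259 in CMT-119, 255 in CMT-12 and 206 in CMT-28. It was 4934 in CMEC1, 229 in CMEC2 and 401 in CMEC3. CMT-27, CMT-47 and CMEC1 were high, CMT-28, CMT-12 and CMEC2 were low, and the groups overlapped. These values rest on 7488 reads in CMT-27 and 6583 in CMT-47 but on 110 in CMT-12 and 81 in CMEC2.

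miR-222 was likewise spread over 27.9-fold in the tumour lines, but over 7.69-fold in the normal samples, as deposited. By share of the summed value, miR-222 was spread over 12.6-fold in the lines and 4.26-fold in the normal samples. Its deposited value was 5957 in CMT-47, 4469.9 in CMT-27, 1165 in CMT-119, 475 in CMT-12 and 214 in CMT-28. It was 4705 in CMEC1, 612 in CMEC2 and 2631 in CMEC3. CMT-28 was the lowest library for both members, and CMEC3, low for miR-221, was in the upper part of the range for miR-222.

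**Figure D1:**
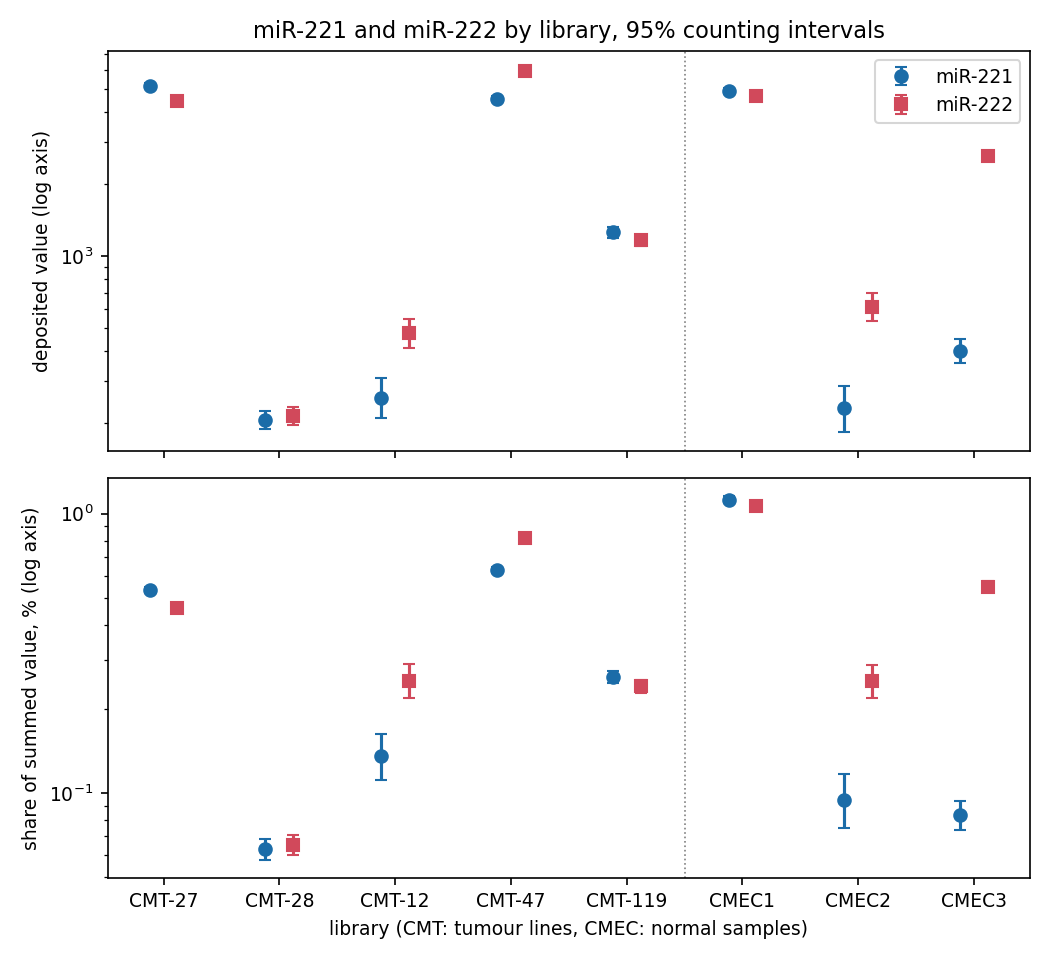
Deposited value (upper panel) and share of the summed value in percent (lower panel) of miR-221 and miR-222 in each library, on log axes, with 95% exact Poisson intervals on the recovered reads; the dotted line parts the 5 tumour lines (CMT) from the 3 normal samples (CMEC). As deposited, both members are high in CMT-27, CMT-47 and CMEC1 and lowest in CMT-28, where miR-221 is at 206 and miR-222 at 214. By share, CMT-28 is again lowest for both, but miR-222 is lower in CMT-27 (0.460%) than in CMEC3 (0.547%).

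Both members were moderately abundant. miR-221 ranked between place 15 (CMEC1) and place 52 (CMT-12) of the 452 miRNAs in a library, and miR-222 between place 14 (CMT-47) and place 50 (CMT-28). By mean value over the 8 libraries they were at places 24 and 23. As a share of the summed value, miR-221 held 0.0630% in CMT-28 to 0.630% in CMT-47 among the lines, and 1.12% in CMEC1, far above CMEC2 (0.0942%) and CMEC3 (0.0833%). miR-222 held 0.0653% in CMT-28 to 0.821% in CMT-47, and 1.07% in CMEC1, 0.251% in CMEC2 and 0.547% in CMEC3. The largest share of either member was thus in a normal sample.

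Neighbours in the order of libraries were compared by their 95% Poisson intervals, which hold counting error alone: without molecular identifiers, reads need not be separate molecules. As deposited, miR-221 fell in the order CMT-27, CMEC1, CMT-47, CMT-119, CMEC3, CMT-12, CMEC2 and CMT-28. The intervals of CMT-27 and CMEC1 overlapped, as did those of CMT-12 and CMEC2 and of CMEC2 and CMT-28, and the other neighbours were parted. miR-222 fell in the order CMT-47, CMEC1, CMT-27, CMEC3, CMT-119, CMEC2, CMT-12 and CMT-28, with overlap between CMEC1 and CMT-27 and between CMEC2 and CMT-12. The order moved with the scale: relative to the library median, miR-221 was highest in CMEC1 (4.75 on the log2 scale), next in CMT-47 (4.54), and CMT-27 was only at 2.42. On that scale miR-222 was highest in CMT-47 (4.92), CMEC1 (4.68) and CMEC3 (4.56), and CMT-28 stayed lowest for both members (0.41 for miR-221 and 0.46 for miR-222). For miR-221, though, the intervals of CMT-28 and CMT-12 (0.46) overlapped on that scale.

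Neither member passed the test between tumour and normal vesicles. On the log2(value + 1) scale, miR-221 averaged 10.10 ± 2.21 over the 5 tumour lines and 9.59 ± 2.36 over the 3 normal samples (SD). That is a difference of 0.51 ± 1.30 (SE; 95% interval -2.24 to 3.26; limma adjusted p = 0.818 over 193 tested miRNAs). miR-222 averaged 10.30 ± 2.05 over the tumour lines and 10.94 ± 1.51 over the normal samples (SD), a difference of -0.64 ± 1.17 (SE; 95% interval -3.11 to 1.83; limma adjusted p = 0.781). The intervals are wide enough to hold changes of several-fold in either direction. By limma 0 of 193 miRNAs passed the adjusted threshold of 0.05 (0%), with 21 at an unadjusted p under 0.05, so the members share that outcome with every tested miRNA. The deposited values of 9.33% of the 193 miRNAs did not overlap between the groups, and those of both members did.

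The direction of miR-221 was not fixed by these data. All tested miRNAs had a median difference of 0.75 as deposited, so relative to it miR-221 was at -0.24 and miR-222 at -1.39. After centring of each library, the median of all was -0.35, and the differences were -0.59 ± 1.09 for miR-221 and -1.74 ± 0.96 for miR-222 (SE; limma adjusted p = 0.847 and 0.478). As deposited, the miR-221 difference was 1.85 without CMEC1 and -0.36 without CMEC2. miR-222 was at -0.64 with all libraries and ran from -1.48 without CMEC2 to -0.0030 without CMT-28, and to -0.012 without CMEC1. Each of these adjusted p-values stayed above the threshold.

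The shares gave the same outcome. The mean share of miR-221 was 0.324% ± 0.247 over the 5 lines and 0.433% ± 0.596 over the 3 normal samples (SD; two-sided exact permutation p = 0.804, and 0.971 adjusted over the 193 miRNAs). That of miR-222 was 0.368% ± 0.289 over the lines and 0.623% ± 0.414 over the normal samples (SD; two-sided exact permutation p = 0.339, and 0.828 adjusted). No miRNA passed this test after adjustment (0%), and 10 had an unadjusted p under 0.05. Without CMEC1 the miR-221 share differed by 0.235 percentage points (CMT minus CMEC), against -0.109 with it.

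**Figure D2:**
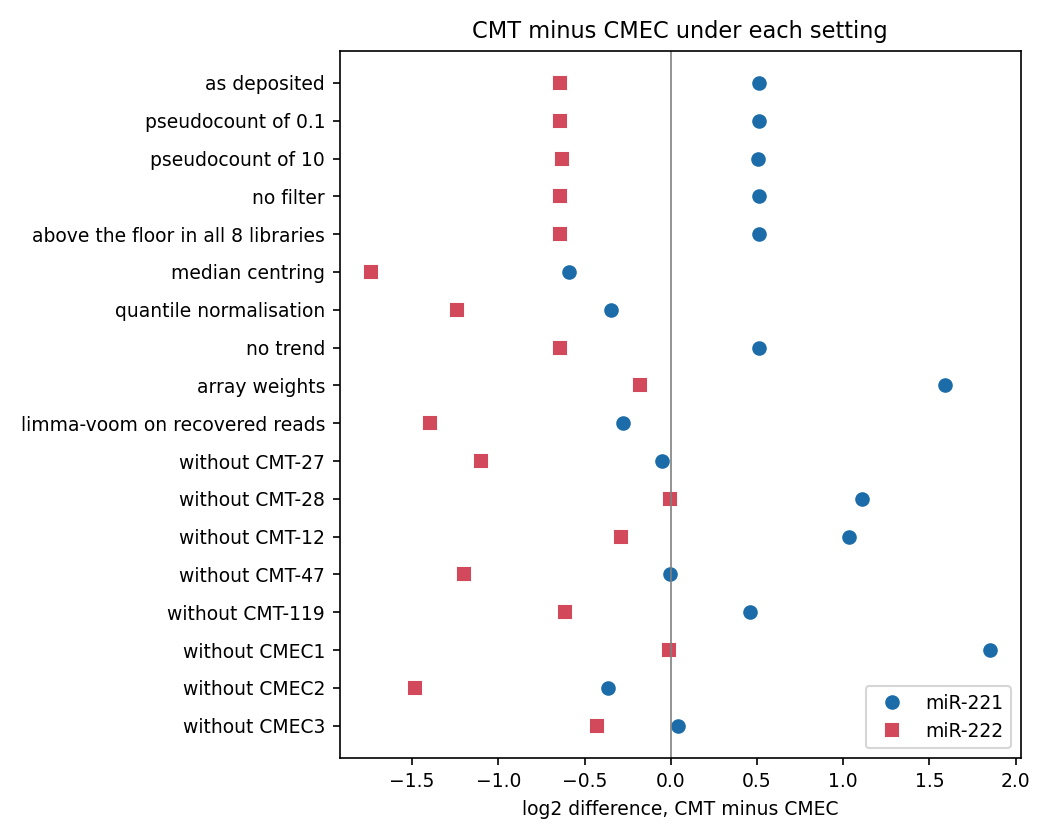
Difference in log2 value between tumour and normal vesicles (CMT minus CMEC, horizontal axis) of miR-221 and miR-222 under each setting and with each library left out. miR-222 stays below 0, at -0.0030 at the nearest, while miR-221 lies on either side of 0, from -0.59 after median centring to 1.85 without CMEC1.

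The ratio of the members within a library does not depend on how that library was scaled. miR-221 divided by miR-222 was 1.16 in CMT-27, 1.08 in CMT-119 and 0.964 in CMT-28, with lower ratios of 0.767 in CMT-47 and 0.537 in CMT-12. It was 1.05 in CMEC1, 0.375 in CMEC2 and 0.152 in CMEC3. All 5 lines were above CMEC2 and CMEC3, while CMEC1 lay within the range of the lines, so the groups overlapped. CMEC3 combined 289 reads of miR-221 with 1898 of miR-222, against 4536 and 4325 in CMEC1.

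miR-222 exceeded miR-221 in 5 of the 8 libraries. The 95% exact binomial interval of the ratio left out 1 in 7 libraries, CMT-28 being the exception (0.854 to 1.09). In the order CMT-27, CMT-119, CMEC1 and CMT-28, the intervals of neighbours overlapped, as did those of CMT-12 (0.422 to 0.680) and CMEC2 (0.287 to 0.486). CMEC3 stood below all others (0.134 to 0.172). Adapter ligation favours some miRNAs over others, so a ratio compares libraries and is not a ratio of molecules.

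The geometric mean of the ratio was 0.869 in CMT and 0.391 in CMEC. As a difference of log2 ratios this was 1.15, from -0.20 ± 0.45 in CMT (SD, n = 5) against -1.35 ± 1.39 in CMEC (SD, n = 3), and it did not pass (two-sided exact permutation p = 0.107; the smallest this design can give is 0.0179). This is also the test of whether the 2 members differ in their response to the contrast. The value rested on single normal samples. It was 1.86 without CMEC1 (exact permutation p = 0.0476, the smallest possible with 1 normal sample left out). It was 0.47 without CMEC3 (exact permutation p = 0.476) and 1.12 without CMEC2 (exact permutation p = 0.190). With any tumour line left out it lay between 1.05 and 1.32.

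**Figure D3:**
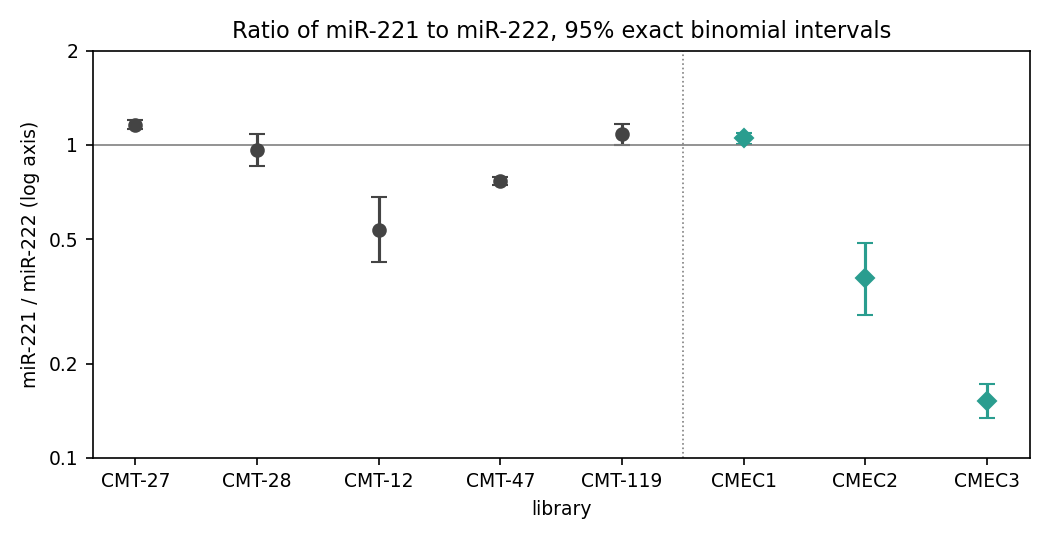
Ratio of miR-221 to miR-222 (vertical log axis) in each library with 95% exact binomial intervals; circles are tumour lines, diamonds normal samples, and the horizontal line marks equal values. The lines lie between 0.537 and 1.16, CMEC1 lies among them at 1.05, and CMEC2 and CMEC3 lie below at 0.375 and 0.152.

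Markers of other cell types differed between the same libraries. miR-206, a skeletal muscle miRNA, was at 2569.8 in CMEC2 and 298 in CMEC3, and at the floor in each of the other libraries. The muscle list (4 of 5 in the table) held 1.50% of the summed value in CMEC2 and 0.234% in CMEC3, against 0.0643% in CMEC1 and 0.0166% to 0.0877% in the CMT lines. Its other members were split. Like miR-206, miR-1 was highest in CMEC2 (1059.6) and CMEC3 (805). As deposited, the opposite held for miR-499, lowest in CMEC2 (17.0) and CMEC3 (18.0), with 92.5 in CMEC1 and 251 in CMT-27. Low in every library, miR-133a had its highest deposited value in CMEC1 (8.70), above CMEC2 (5.67) and CMEC3 (2.77). These are few reads, as 1 read was worth 1.09 in CMEC1, 2.83 in CMEC2 and 1.39 in CMEC3. The summed value was 243703 in CMEC2, 440060 in CMEC1 and 725173 in CMT-47. As a share of it, miR-499 was lower in CMT-47 than in CMEC2, and miR-133a was higher in CMEC2 than in CMEC1. The mesenchymal list of 5 held 18.8% in CMEC2 and 13.2% in CMEC3, 1.82% in CMEC1, and 0.0166% in CMT-27 to 14.1% in CMT-47. Most of it was miR-143 in each library, and other members differed. miR-199 was at 1623 in CMEC2, 1097 in CMEC3, 129 in CMEC1 and 1616 in CMT-28, but at 18.5 or less in the other lines, CMT-47 included. miR-214 was at 65.2 in CMEC2, 51.3 in CMEC3 and 5.02 or less elsewhere. miR-145 and miR-152 did not follow this. miR-145 was at 96.3 in CMEC2 but 19.4 in CMEC3, with 76.1 in CMEC1, 180 in CMT-28 and 190 in CMT-47. miR-152 was at 595 in CMEC2, 937 in CMEC3 and 618 in CMEC1, and highest in CMT-47 (1455). Whether muscle or mesenchymal cells were present was not tested, and neither was their part in the ratio. miR-126, an endothelial miRNA, was at 23.5 in CMT-27, 8.89 in CMT-28, 2.18 in CMEC1 and at the floor elsewhere. Its part in the levels of miR-221 and miR-222 was not tested. Of the 6 blood cell markers, 1 to 4 were above the floor in a library, with 0.000494% to 0.116% of the summed value and miR-223 at the floor in all. The liver miRNA miR-122 held 9.74% in CMT-12 and at most 0.277% in any other library.

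The members varied more between libraries than most miRNAs. The SD of the log2 value over the 8 libraries was 2.11 for miR-221, place 38 of 193 tested miRNAs, and 1.78 for miR-222, place 63, with a median of 1.47 over all. Relative to the library median the SDs were 1.65 and 1.64, places 53 and 55, with a median of 1.23. By the SD of their log2 ratio, the members were near the middle of other close pairs. Among 21 pairs of single-locus miRNAs within 10000 bases on 1 strand and above the floor in all libraries, the SD of the log2 ratio ran from 0.62 (miR-500 and miR-502) to 2.00 (miR-30b and miR-30d). It was 1.01 for miR-221 and miR-222, place 13 from the top, and the median was 1.12. Their Pearson correlation relative to the library median was higher than the median of these pairs, at 0.81 against 0.50. Pairs that share a miRNA are not independent, and this comparison is a description. The pairs were not matched for abundance, so counting error adds more to the SD of some pairs than to that of the members. miR-660, for example, was at 2.83 in CMEC2, the worth of 1 read there.

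The miRNAs with the most similar pattern were ranked by Pearson's r of log2(value + 1) relative to the library median, over 8 libraries that share the scaling. These correlations describe the 8 libraries and carry no p. miR-221 and miR-222 had r = 0.81 with each other, which put miR-222 at place 5 of 192 for miR-221 and miR-221 at place 2 for miR-222. As deposited, r was 0.88.

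The closest to miR-221 was miR-8859a (r = 0.93), followed by miR-30a (0.92), miR-140 (0.89) and miR-20b (0.82). miR-30a, of a family abundant in epithelia, was at 21448 in CMEC1 and 17666 in CMT-47 but at 292 in CMT-28 and 346 in CMEC2. miR-140, known from cartilage, was at 35053 in CMEC1 and at 105 in CMEC2. miR-20b, of the miR-106a cluster on the same chromosome, was at the floor in 3 libraries. The least similar were miR-371 (-0.83), at the floor in 4 libraries, and miR-19a (-0.75), with -0.16 and 0.19 as deposited.

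The closest to miR-222 was miR-8859b (r = 0.97), then miR-221, let-7c (0.77), miR-8859a (0.74) and miR-671 (0.72). miR-8859a and miR-8859b were at place 1 for miR-221 and miR-222 also as deposited and without CMEC1, and by rank correlation at places 2 and 1. let-7c, of the let-7 family described as tumour-suppressive, held place 3 here but place 31 by rank correlation. The least similar were miR-181a (-0.88) and miR-20a (-0.86), with -0.28 and 0.04 as deposited.

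**Figure D4:**
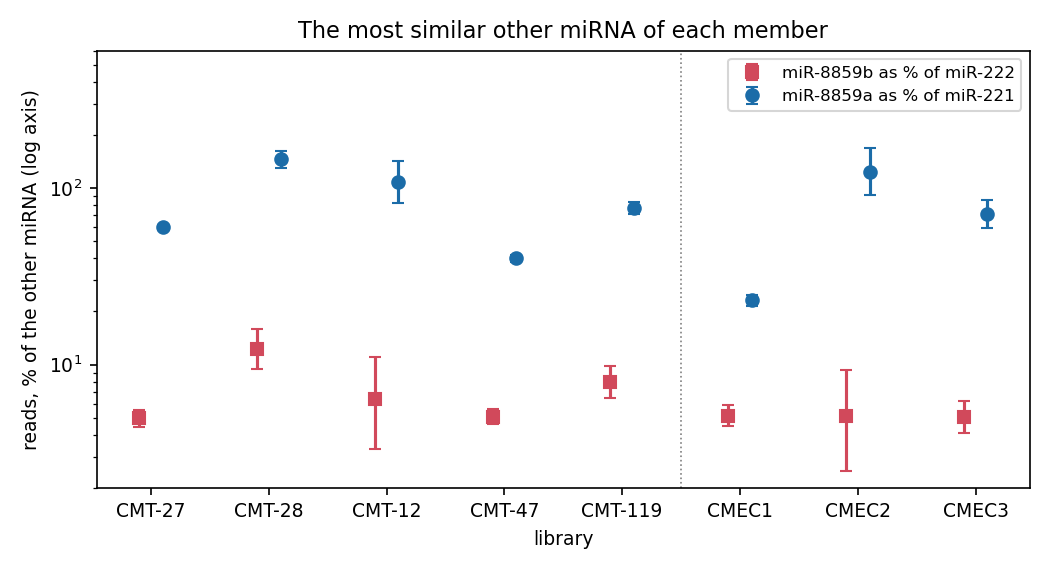
Reads of miR-8859b as a percentage of miR-222 reads and of miR-8859a as a percentage of miR-221 reads in each library, on a log axis, with 95% intervals from exact binomial limits. miR-8859b stays between 4.97% and 6.34% of miR-222 in 6 libraries and reaches 12.3% in CMT-28, while miR-8859a runs from 23.1% to 146% of miR-221.

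miR-8859a and miR-8859b start 171 bases apart on chromosome 18 of canFam3, at 46690410 and 46690581, and the sources used here give no role for them. miR-8859b had 4.97% of the reads of miR-222 in CMT-27, 5.06% in CMT-47, 5.13% in CMEC1, 5.09% in CMEC2 and 5.06% in CMEC3. It had 6.34% in CMT-12, 7.99% in CMT-119 and 12.3% in CMT-28, the last with an interval of 9.41% to 15.8%. The log2 ratio of these had an SD of 0.47 over the 8 libraries, against 1.01 for miR-221 and miR-222. miR-8859a had 23.1% of the reads of miR-221 in CMEC1 and 146% in CMT-28, with an SD of 0.88. Whether reads were shared between these loci was not tested.

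Other miRNAs tied to the same targets or to receptor status were read beside the pair, as counts against the median difference of 0.75 of all tested miRNAs. Of 5 miRNAs described as higher in receptor-negative human breast cancer, 5 were tested and 0 passed, with a median difference of 2.68 and the smallest adjusted p at 0.196. Among them miR-9 was at 4.81 ± 1.498, miR-146a at 3.18 ± 1.57 and miR-155 at 2.29 ± 1.27 (log2 difference ± SE, 5 against 3 libraries), while miR-221 was at 0.51 and miR-222 at -0.64. Of 3 described as higher in receptor-positive tumours, 2 were tested and 0 passed: miR-375 was at 0.97 ± 1.27 and miR-190b at 0.09 ± 0.85, and miR-342 was at the floor in all libraries.

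Of 6 miRNAs described to target ESR1, 3 were tested and 0 passed, with a median of 1.33. miR-22 was at 1.33 ± 0.93 and miR-18a at 2.55 ± 0.95 (limma adjusted p = 0.385), and miR-193b was at -0.37 ± 0.84. miR-206, on the same list, was above the floor only in CMEC2 and CMEC3, as given above, and was not tested. For CDKN1B, miR-24 was at 0.83 ± 0.93 and miR-196a at 1.76 ± 1.51, and 0 of 2 passed.

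The pair was also read beside the other miRNAs of chromosome X. Of 59, 27 were above the floor in some library, 21 were tested and 0 passed. The tested ones had a median difference of 0.83 and a range of -2.50 (miR-504) to 2.51 (miR-363). The size of the lowest difference depends on the floor, because no tumour line had a higher value of miR-504 than that. Its deposited value was 6.53 in CMEC1, 5.67 in CMEC2 and 27.7 in CMEC3. The most abundant of the tested ones were miR-92a at 1.11 ± 0.87, miR-363 at 2.51 ± 2.05 and miR-532 at 0.38 ± 1.02. miR-92a has 2 loci, and its value here is from the row on chromosome 22. As deposited, miR-363 was at 2312 in CMT-27, 900 in CMT-47 and 618 in CMEC1, the libraries in which miR-221 was high. It was at 66.2 or less in the other 5. The other abundant ones named, miR-532 and miR-92a, did not follow this. miR-532 was highest in CMT-47 (1171), but at 457 in CMT-27 against 464 in CMT-12. miR-92a was at 3508 in CMT-12 and 1440 in CMEC1.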

How the data were processed

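The deposited table held 1 normalised signal per miRNA locus and library, 511 loci in all. Per the submitters' processing notes, the genome build was canFam3. No source used here names the aligner, the normalisation method or the annotation. Libraries were made from 500 ng of RNA and read as single 50-base reads, per the labels. Columns were assigned to samples by the library identifier in the labels. The members and lists were chosen with earlier results of these data known.

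Of several loci of 1 miRNA (45 cases) only that with the highest mean entered, leaving 452. The worth of 1 read was found per library as the largest step of which values above 1 were whole multiples within 0.05 steps, from 0.386 in CMT-28 to 2.83 in CMEC2. Tests covered the 193 miRNAs above 1 in at least 3 libraries. limma 3.58.1 was fitted to log2(value + 1) (R 4.3.3, eBayes with a trend; CMT minus CMEC; Benjamini-Hochberg over all 193). Fold changes on this scale understate low miRNAs. Ratio and shares were tested by two-sided exact permutation over 56 divisions into 5 and 3 libraries. The fit was tested on simulated data. Named miRNAs were the members, the 5 most and 2 least similar to each, and up to 3 of the most abundant of each list. The result of 1 planned list is not reported here. Alternatives covered pseudocount, filter, scaling, trend, weights, limma-voom and leaving out each library. Mature and hairpin sequences were not used here. The comparison of neighbouring pairs, the shares of miR-8859a and miR-8859b and the other measures of similarity were added after the values were seen.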

Additional observations from a re-analysis of the deposited data

How the results depend on the processing

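No paired analysis was possible because the tumour lines carry names, not replicate numbers that the normal samples share. Over 17 alternatives the difference of miR-221 changed sign in 6: -0.59 after median centring, -0.35 after quantile normalisation, -0.27 with limma-voom on recovered reads, -0.051 without CMT-27, -0.0061 without CMT-47 and -0.36 without CMEC2. With 1 library left out it ran from -0.36 to 1.85. miR-222 stayed negative in all 17, from -1.48 to -0.0030 with 1 library left out, and at -1.74, -1.24 and -1.40 under those 3 scalings. With array weights the differences were 1.59 and -0.18. No adjusted p of a member was under 0.291. limma called 15 miRNAs with array weights, and 0 to 6 with 1 library left out, 6 only without CMEC1; neither member was among them. The difference in log2 ratio was 1.13 to 1.15 with other pseudocounts or none, and 0.47 to 1.86 with 1 library left out, passing only without CMEC1. The miR-221 share difference ran from -0.284 to 0.235 percentage points, positive only without CMEC1, and that of miR-222 from -0.440 to -0.031. The cause of these changes was not tested. The planned negative binomial count models were not run, because values under 1 are set to 1 in the table. Low counts are thus lost where 1 read was worth less than 1, as in CMT-28 (0.386). The limma-voom fit used the same recovered reads and has the same limit. Depth limited CMT-12 and CMEC2 most, where 1 read was worth 2.32 and 2.83.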
